A study of Mus musculus with 8 samples.

Results

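Chronic myeloid leukaemia (CML) stem cells were compared with the KLS- progenitors sorted from the same disease, which asks how the transcripts of the most immature leukaemic cells differ from those of their committed descendants. The comparison used the 4 CML samples of a series of 8, namely 3 stem cell samples (LT replicates 1 and 2, and ST) and 1 sample of KLS- progenitors. They were chosen by label, as the CML samples of these sorted populations. Bone marrow came from Tal1-tTA × TRE-BCR-ABL1 double-transgenic mice, in which the Tal1 enhancer drives the tetracycline transactivator and withdrawal of doxycycline (DOX) switches on BCR-ABL1 in blood stem and progenitor cells, so every sample compared carries both transgenes. The study's methods give these mice as males and females of 8 to 12 weeks, 5 weeks after DOX withdrawal, on the FVB/N background, whereas the labels name C57BL/6 as the strain. LT stem cells were gated as CD150+ CD48- CD135- KLS+ cells, ST stem cells as CD150- CD48- CD135- KLS+ cells and progenitors as KLS- cells, where KLS stands for cKit+ Lineage- Sca-1+ and KLS- cells lack Sca-1. Nothing in the labels says how many mice stand behind a sample, so p-values measure the spread between the samples as deposited. Among the stem samples that spread includes the difference between LT and ST cells. The 3 normal stem samples and 1 normal KLS- sample come from mice without BCR-ABL1 and are labelled 2 months old, apart from LT replicate 2 at 6 months. The study's methods give the normal mice as Tal1-tTA littermates of 8 to 12 weeks. The 6-month sample is older than that, so its genotype is not stated there. These samples were sorted by the same gates and are used only for a second reading of each difference.

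Haematopoietic stem cells renew themselves and feed every blood lineage, and they are kept in a slowly dividing state by transcription factors such as Meis1 and Mecom and by signals from surface receptors such as Tek. As they commit, they lose these genes and turn on the programmes of single lineages, among them haemoglobin and heme synthesis in red cell precursors and granule proteases in neutrophil precursors. In CML the BCR-ABL1 kinase arises in a stem cell and expands the myeloid progenitors below it, while the stem cells persist under therapy.

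RNA of each sample was sequenced and deposited as RPKM, reads per kilobase of transcript scaled to the depth of each sample, without read counts. The steps between low values gave an estimated 17.8 to 20.7 M reads in the CML samples. At this depth 3 reads of a transcript of 1 kb correspond to 0.145 to 0.168 RPKM. The estimate covers counting error only, and other sources of spread in low values were not measured. Values follow in the order LT replicate 1, LT replicate 2 and ST against the KLS- sample, and differences are stem mean minus progenitor value on the log2(RPKM + 1) scale, on which changes of weakly expressed genes come out too small. Over the 11734 genes whose RPKM added up to more than 1 in these 4 samples, Pearson's r of log2(RPKM + 1) was 0.9797 for the LT replicates, 0.966 to 0.971 between LT and ST and 0.906 to 0.928 between stem samples and progenitors. These correlations are across genes, which are not independent replicates.

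The stem samples were not alike in all respects. LT replicate 2 stood at least 3 above LT replicate 1 on the log2 scale in 19 genes and at least 3 below it in 1. Among the former was Ddx3y, a gene of the Y chromosome, at 0.0625, 17.5 and 0 against 0 RPKM, while Xist, which coats the silenced X chromosome of female cells, was at 30.8, 13.5 and 24.3 against 12.4 RPKM. LT replicate 2 thus held both transcripts. Transcripts of neutrophil precursors were also far higher in LT replicate 2 and ST than in LT replicate 1, with the 21 granule genes summing to 589.5, 4551 and 2698 RPKM against 23701 in the KLS- sample. ST cells had the lowest sum over 24 mitosis genes, 175 RPKM against 560.1 and 670.4 in the LT replicates and 987 in KLS- cells. In bulk samples such as these, fewer cells of a type and less RNA of that type per cell cannot be told apart.

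The genes behind the gates followed the sort in LT and KLS- cells and in part in ST cells. Ly6a, which encodes Sca-1, was at 75.95, 72.4 and 136 against 11.7 RPKM, high in every stem sample, and rose by 2.85 (standard error 0.39, adjusted p = 0.0128, limma). Cd48, which encodes a surface protein gained with commitment, was at 16.8, 29.5 and 45.1 against 129 RPKM and fell by 2.15 (standard error 0.50, adjusted p = 0.0407 from limma). The order of Cd48 ran from LT through ST to KLS- cells. Slamf1, which encodes CD150, was at 35.5, 25.4 and 2.87 against 2.36 RPKM, so that ST cells, gated as CD150-, lay near the progenitors, and its difference of 2.21 had an adjusted p of 0.223 from limma. Kit, required by each gate, was at 153, 119 and 153 against 88.2 RPKM and its difference of 0.67 did not pass (adjusted p = 0.105 from limma). The CD135 gene, Flt3, was at 11.9, 19.2 and 71.6 against 17.1 RPKM and was therefore highest in the ST sample, although that gate excluded CD135 protein.

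**Figure D1:**
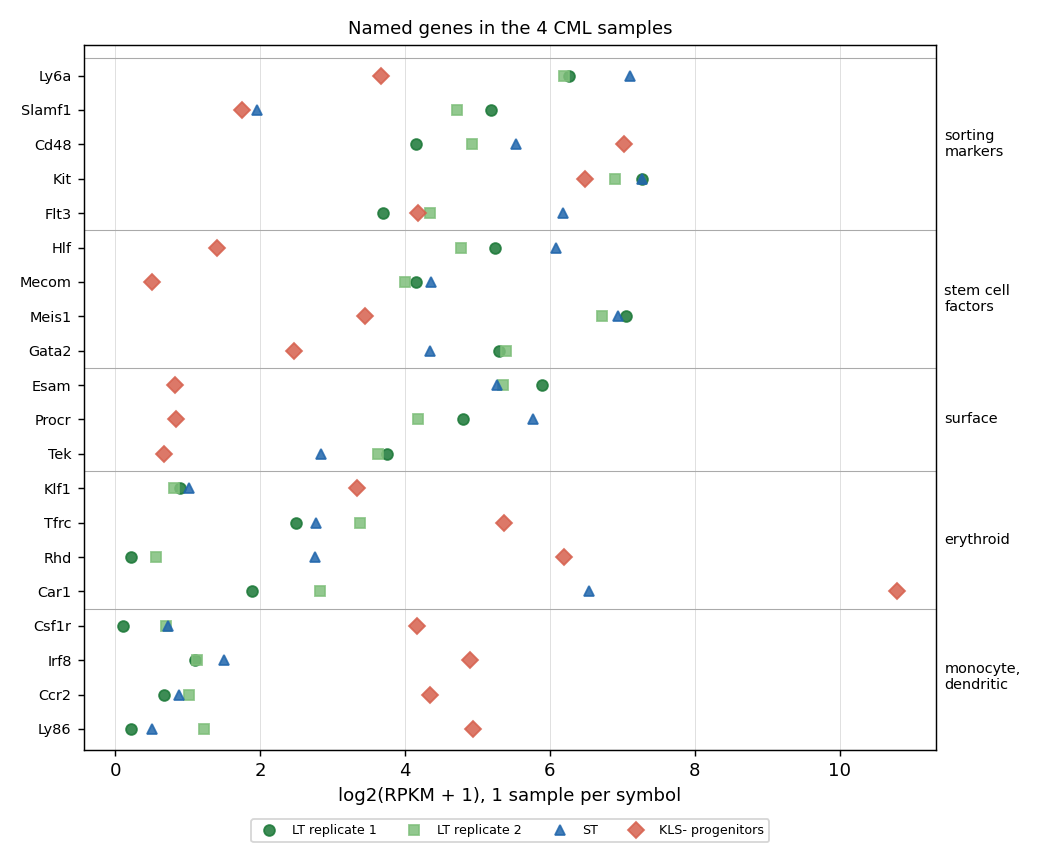
Level of 20 named genes in each of the 4 CML samples, as log2(RPKM + 1) on the horizontal axis with 1 symbol per sample and no error bars. All 3 stem samples lie above the progenitor sample for stem cell factors and surface genes and below it for erythroid and monocyte genes. For Car1 and Rhd the ST sample stands well above both LT replicates, and Slamf1 and Flt3 also separate LT from ST cells.

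Between stem cells and progenitors, 1763 of 11734 genes differed at an adjusted p below 0.05 (limma on log2(RPKM + 1), Benjamini-Hochberg adjustment). Of these, 942 (8.03% of the genes tested) were higher and 821 (7%) were lower in the stem samples, with median differences of 1.36 and -1.19 against 0.05 over all genes tested. The progenitor side has a single sample, which the fit assumes to vary as the stem samples do, and the 2 residual degrees of freedom come from the stem samples alone. LT and ST samples share a mean in this fit, so any difference between them adds to the spread. A gene that did not pass may thus still differ between LT or ST cells and progenitors. An exact permutation test of 3 samples against 1, with the p of a single tail doubled, cannot give a p below 0.5 for a single gene. By size alone, 626 genes (5.33%) were at least 1 higher on the log2 scale in each of the 3 stem samples than in the progenitor sample, and 516 genes (4.4%) were at least 1 lower in each. Without LT replicate 1, LT replicate 2 or ST in turn, 232, 288 and 1348 genes were higher and 188, 112 and 1231 were lower, and 180 and 89 genes of the full comparison passed in all 3 of these reduced fits. None of the called genes that could be tested in these fits changed direction, though the fits share samples with the full comparison. Scaling each sample to its upper quartile moved the median of all genes by 0.12 and the split to 1124 higher and 568 lower, so that 66.4% rather than 53.4% of the called genes were higher. RPKM summed to 324114 to 366775 over all genes in the stem samples and to 465695 in the progenitors, and scaling to equal totals, an alternative chosen after seeing the data, moved the median by 0.30 and gave 1968 higher and 316 lower genes (86.2% higher). None of the 1763 genes changed direction under either scaling. Their median differences of 1.36 and -1.19 are large beside these shifts, so an unchanged direction is a weak check. Differences below are to be read against the shifts. Among the genes higher in stem cells, the ST sample lay above both LT replicates in 405, below both in 257 and between them in 280. Among the genes lower in stem cells the corresponding numbers were 254, 314 and 253.

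**Figure D2:**
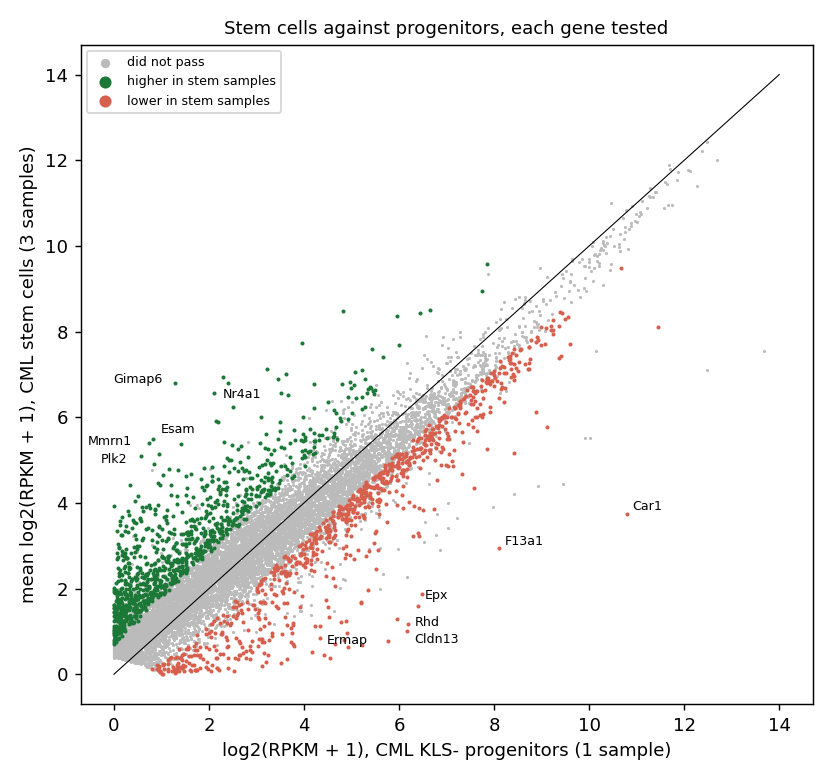
Mean log2(RPKM + 1) of the 3 CML stem samples on the vertical axis against log2(RPKM + 1) of the single CML KLS- sample on the horizontal axis, 1 point per gene tested (11734), with the 942 genes that were higher in green, the 821 that were lower in red and the line of equal values in black. Of the genes that were higher, 510 were at 1 RPKM or more in the progenitors, and the gene farthest below the line is Car1.

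The largest increases belonged to genes at low levels in the progenitors. Gimap6, a GTPase of the immune-associated family on chromosome 6 (48651581 to 48658224 of mm9, minus strand), was at 105, 84.7 and 154 against 1.43 RPKM, a rise of 5.53 (standard error 0.35, adjusted p = 0.00514 from limma). Esam, an endothelial adhesion molecule that also marks stem cells, on chromosome 9 (37335663 to 37345904 of mm9, plus strand), was at 58.2, 39.6 and 37.5 against 0.776 RPKM and rose by 4.67. Both separated all 3 stem samples from the progenitors by more than the stem samples differed among themselves. Mmrn1, a platelet and endothelial matrix protein, was at 63.7, 47.1 and 23.03 against 0.678 RPKM and so was lowest of the stem samples in ST cells. Plk2, a polo-like kinase, was at 35.4, 38.5 and 27.2 against 0.481 RPKM and Nr4a1, an orphan nuclear receptor of the early response, at 80.8, 126 and 81.8 against 3.29 RPKM. Procr, the endothelial protein C receptor, was at 26.8, 17.03 and 53.4 against 0.784 RPKM and Hlf, a transcription factor of stem cells, at 36.9, 26.4 and 67.04 against 1.66 RPKM, both highest in ST cells. Further leading genes were Ctla2b, an inhibitor of cysteine proteases, the sulfotransferase Sult1a1, the uridine phosphorylase Upp1 and the uncharacterised Gm5111. They rose by 4.38, 4.18, 4.08 and 3.92, with adjusted p-values of 0.0126, 0.00628, 0.00628 and 0.00628 from limma. Gm5111 is listed at 0 in the progenitors, so its difference depends on the pseudocount. All the leading genes named here except Mmrn1, whose adjusted p was 0.0522 without LT replicate 2, passed with each stem sample left out (limma).

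Among the largest decreases were Car1, F13a1 and Epx, known from red cells, monocytes and eosinophils. Car1, carbonic anhydrase 1 of red cells on chromosome 3 (14766217 to 14778459 of mm9, minus strand), was at 2.71, 6.11 and 91.7 against 1775 RPKM and fell by 7.04 (standard error 1.64, adjusted p = 0.0412 from limma). The ST value stood well above both LT values and far below the progenitor value. F13a1, coagulation factor XIII A of monocytes, was at 0.926, 19.8 and 10.4 against 274 RPKM and fell by 5.16, with LT replicate 1 the lowest. Epx, the eosinophil peroxidase, was at 4.47, 0.306 and 2.89 against 82.99 RPKM and fell by 4.79. Mt2, a metallothionein, was at 1.48, 3.16 and 3.76 against 88.7 RPKM and fell by 4.62 (standard error 0.39, adjusted p = 0.00628 from limma). Slc38a5, a glutamine transporter, was at 0.261, 0.296 and 1.505 against 36.2 RPKM, and Pklr, the pyruvate kinase of red cells and liver, at 0.0363, 0.0206 and 1.08 against 22.4 RPKM. Ly86, a partner of a Toll-like receptor relative, was at 0.1601, 1.33 and 0.415 against 29.6 RPKM, Tifab at 0.116, 3.03 and 2.27 against 61.1 RPKM and Atp1b2, a sodium pump subunit, at 0.163, 0.613 and 1.79 against 27.9 RPKM. From Epx to Atp1b2, these genes were below 5 RPKM in every stem sample. Cldn13, Rhd and Ermap complete the list and are described with the red cell genes. The call for Car1 rested on LT replicates 1 and 2 together, with adjusted p-values of 0.0748 and 0.117 without each of them. F13a1 had 0.0673 without LT replicate 2, Tifab 0.0502 and Atp1b2 0.0524 (all from limma). Cldn13 and Rhd did not pass without either LT replicate, nor Ermap without LT replicate 2. Car1, F13a1 and Cldn13 were also lost after quantile normalization, upper-quartile scaling and scaling to equal totals, Rhd after quantile normalization, and F13a1, Cldn13 and Rhd with a pseudocount of 0.1.

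Transcription factors of stem cells were higher in the stem samples as a group. Of 24 such genes, 14 rose (58.3%, against 8.03% of all genes tested), none fell and the median difference was 1.21 against 0.05 for all genes. Mecom, which sustains long-term renewal, was at 16.8, 14.9 and 19.5 against 0.418 RPKM and rose by 3.66 (standard error 0.24, adjusted p = 0.00514 from limma). Meis1, a partner of Hox proteins, was at 132, 104 and 121 against 9.93 RPKM and rose by 3.45 (standard error 0.22, adjusted p = 0.00514 from limma). The 3 stem values of each lay within a narrow band far above the progenitors. Gata2 was at 38.1, 40.9 and 19.3 against 4.52 RPKM, with the ST value between those of LT cells and progenitors. Prdm16, Hoxb5 and Ndn, which is also imprinted, were at 1.72, 1.39 and 1.83 against 0.0913 RPKM, 1.73, 1.27 and 1.13 against 0.0592 RPKM and 8.16, 4.86 and 5.59 against 0.17 RPKM, and the progenitor values correspond to few reads. Lmo2, a bridge between DNA-binding factors, was at 127, 78.7 and 126 against 26.7 RPKM, and Mllt3, Zfp57, Hoxa5, Hoxa9, Runx1 and Etv6 also rose. Gfi1 and Gfi1b, repressors that act in myeloid, red cell and platelet lineages, had differences of -0.57 and -0.54, and neither passed. Without LT replicate 1, LT replicate 2 or ST, 6, 7 and 18 of the list rose, and Mecom, Hlf, Meis1, Mllt3, Ndn and Zfp57 passed in all 3 reduced fits. In this and each of the following lists where no gene rose, or none fell, at most 1 member had an unadjusted p below 0.05 in that direction (limma), apart from the neutrophil genes described below. Where a list below gives counts alone, they are to be read against 8.03% higher and 7% lower of all genes tested.

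Surface genes used to mark stem cells rose in 10 of 22 cases (45.5%, against 8.03% of all genes tested), none fell and the median difference was 1.40. Beside Esam and Procr, Tek, the receptor of angiopoietin, was at 12.4, 11.3 and 6.14 against 0.591 RPKM and rose by 2.73 (standard error 0.39, adjusted p = 0.0141 from limma). Fgd5, a guanine nucleotide exchange factor of stem and endothelial cells, was at 2.55, 1.87 and 1.94 against 0.0599 RPKM, and Robo4, a guidance receptor, at 3.85, 2.86 and 6.68 against 0.183 RPKM. Both rose from a progenitor level of few reads. Thy1 was listed at 0 in progenitors and at 1.14, 0.728 and 1.05 RPKM in the stem samples. Il1rap, Cd33, Dpp4 and Il2ra have been proposed as markers of leukaemic stem cells. Il1rap was at 5.82, 4.11 and 4.91 against 5.18 RPKM, Cd33 at 0.582, 0.618 and 2.07 against 1.62 RPKM, Dpp4 at 8.04, 8.44 and 11.6 against 6.896 RPKM and Il2ra at 0.327, 0.506 and 0.556 against 0.2004 RPKM. None of these passed, and the progenitor value of Il1rap and Cd33 lay within the range of the stem samples. The lowest differences of the list were those of Ly6e, -0.79 with an adjusted p of 0.0542 from limma, and of the lectin Cd93, -0.44, and neither passed. The counts without LT replicate 1, LT replicate 2 and ST were 4, 3 and 14 higher, and 1 member fell without ST, as 1 did in the fit of all 8 samples with a mean for each population. Among 21 integrin, selectin and homing genes, 5 rose and 1 fell, with a median of -0.12, and in the reduced fits 2, 2 and 6 rose and 1, 0 and 6 fell, so that without ST the rises and falls were equal in number. Jam3, a junctional adhesion molecule, was at 13.6, 8.798 and 10.6 against 0.349 RPKM and rose by 3.13, and the adhesion receptors Itga6 and Icam1 rose as well. Ptger2, a prostaglandin receptor, fell by 1.22. Cxcr4, the receptor of the niche chemokine Cxcl12, was at 8.41, 4.27 and 11.6 against 20.1 RPKM and did not pass (adjusted p = 0.103 from limma). The integrin chains Itgb3 and Itgal and the adhesion molecule Vcam1 had differences of 1.97, -1.77 and -2.44, which did not pass either. The median of this list was 0.30 after scaling to equal totals, and so changed sign.

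Megakaryocyte genes lay above the progenitors in most cases, in median by more in LT than in ST cells. Of 20 tested, 14 were higher in every stem sample than in the progenitors, against 41.9% of all genes tested. By the test 6 rose (30%), among them F2r, Gng11, Gp9, Plek and Cd9, none fell, and the median difference was 1.74. Sample by sample the median was 2.39 and 2.24 in the LT replicates and 0.53 in ST cells. Pf4, platelet factor 4, was at 359, 202 and 16.4 against 44.5 RPKM and thus lower in ST cells than in progenitors. Itga2b, the platelet integrin CD41, was at 51.03, 38.4 and 5.85 against 5.86 RPKM and Vwf, von Willebrand factor, at 16.2, 8.05 and 0.913 against 1.08 RPKM, with ST and progenitor values nearly equal. F2r, the thrombin receptor, was at 78.2, 57.3 and 56.7 against 7.59 RPKM and rose by 2.90 (standard error 0.26, adjusted p = 0.00633 from limma). Without the ST sample 17 of the 20 rose, against 4 and 2 without LT replicates 1 and 2. The promoter of Pf4 is shown because Pf4 separates LT from ST cells most sharply among these genes. In RefSeq on GRCm38.p6 it spans chr5:90772185-90772484, plus strand, around the start of the transcript, with the letters AGATAA, a core recognised by GATA factors, in capitals.
Pf4: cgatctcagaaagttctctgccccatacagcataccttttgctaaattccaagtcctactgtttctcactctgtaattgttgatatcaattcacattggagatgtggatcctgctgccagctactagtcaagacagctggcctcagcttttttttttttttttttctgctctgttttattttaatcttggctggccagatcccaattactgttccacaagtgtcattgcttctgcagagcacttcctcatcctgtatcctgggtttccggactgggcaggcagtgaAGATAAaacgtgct
The letters AGATAA or their reverse complement were searched on both strands and were found in the promoters of 4 of 15 matched genes of this list (Pf4, Gp5, F2rl2 and Clec1b), against 11.4% of all 27025 promoters of the same length and 6.43% of the 8114 genes tested that matched the table. A match in this window is a description and not a binding site.

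**Figure D3:**
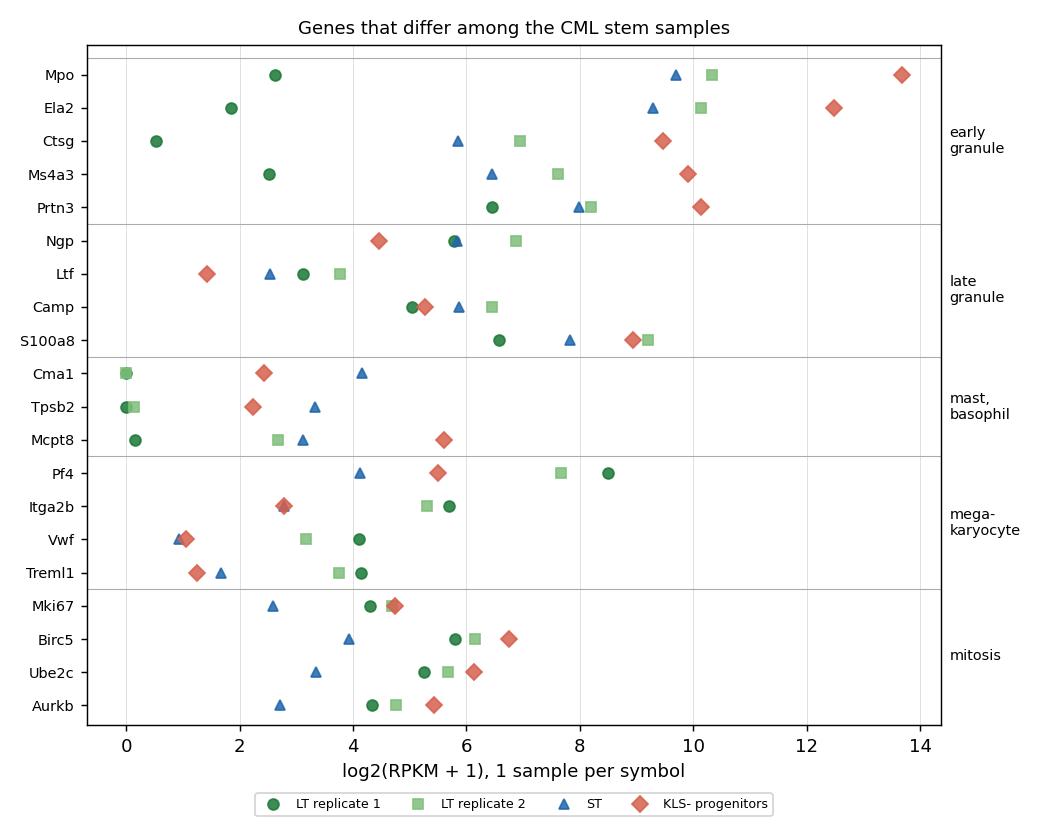
Level of 20 genes in each of the 4 CML samples, as log2(RPKM + 1) on the horizontal axis with 1 symbol per sample and no error bars. Early granule genes are lowest in LT replicate 1, the mast cell genes Cma1 and Tpsb2 are highest in ST cells, megakaryocyte genes are high in both LT replicates, and mitosis genes are lowest in ST cells.

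Red cell genes were the lineage group with the most genes lower in stem cells. Of 22 tested, 14 fell (63.6%, against 7% of all genes tested), none rose, and the median difference was -1.90. Klf1, the master factor of red cell genes, was at 0.8502, 0.752 and 1.014 against 9.07 RPKM and fell by 2.43 (standard error 0.21, adjusted p = 0.00628 from limma). Tfrc, the transferrin receptor, was at 4.64, 9.36 and 5.84 against 40.1 RPKM and fell by 2.48. The blood group proteins Rhd and Ermap were at 0.1596, 0.472 and 5.78 against 71.9 RPKM and 0.117, 0.217 and 2.75 against 53.3 RPKM, and Cldn13 at 0, 0.155 and 6.24 against 71.1 RPKM. In each of these the ST sample was the highest of the stem samples and an order of magnitude below the progenitors. Gata1 was at 34.9, 29.6 and 3.35 against 57.2 RPKM, high in LT replicates and progenitors and low in ST cells, and did not pass (adjusted p = 0.298 from limma). The adult globins Hbb-b1 and Hbb-b2, which are near-identical copies and may share reads, were at 0, 0.263 and 0.857 against 1.61 RPKM and 0.0792, 0 and 0.264 against 0.827 RPKM, so that both were low as listed. The alpha globins Hba-a1 and Hba-a2 were below the level tested. How reads shared by such copies were counted is not given, so these values do not measure the amount of haemoglobin transcript. In the reduced fits 10, 6 and 17 members fell, and Klf1, Tfrc, Aqp1, Add2, Ank1 and Trib2 fell in all 3. For Rhd the promoter is shown as the only one among the red cell genes that fell to hold AGATAA in this window. It lies at chr4:134864286-134864585 of GRCm38.p6, plus strand, with those letters in capitals.
Rhd: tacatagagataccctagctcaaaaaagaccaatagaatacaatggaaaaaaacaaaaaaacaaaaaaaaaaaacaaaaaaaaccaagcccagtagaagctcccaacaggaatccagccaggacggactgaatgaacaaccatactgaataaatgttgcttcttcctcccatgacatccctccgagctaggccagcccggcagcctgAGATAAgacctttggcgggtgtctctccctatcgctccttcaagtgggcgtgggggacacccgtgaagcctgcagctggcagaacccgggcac
The letters were present in 5 of the 15 red cell genes with a promoter in the table (Epor, Alas2, Hemgn, Rhd and Icam4). Of the 13 genes of heme synthesis and its iron and porphyrin carriers, 7 fell and none rose, with a median difference of -1.16. Alas1, the first enzyme of the pathway outside red cells, was at 17.9, 50.7 and 46.8 against 339 RPKM and fell by 3.24. Abcb6, a porphyrin carrier, was at 1.37, 1.704 and 1.299 against 7.35 RPKM (standard error of its difference 0.22, adjusted p = 0.0108 from limma), and Abcb6, Slc25a38, Alad, Cpox and Uros fell by 1.16 to 1.77. Alas2, the red cell form of the first enzyme, was at 0.317, 0.625 and 0.922 against 1.96 RPKM and did not pass. The numbers that fell without LT replicate 1, LT replicate 2 and ST were 3, 2 and 8.

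Neutrophil granule genes had the lowest median of any group, -2.59 over 21 genes, yet none passed the test (limma, adjusted p below 0.05), and 8 were lower and 2 higher at an unadjusted p below 0.05. The stem samples differed widely among themselves. Counted at the size threshold, 13 were at least 1 lower in every stem sample and 2 at least 1 higher. Mpo, myeloperoxidase, was at 5.2, 1291 and 830.1 against 13120 RPKM, and neutrophil elastase (Elane, listed as Ela2) at 2.62, 1120 and 627 against 5672 RPKM. Ctsg, cathepsin G, was at 0.434, 123 and 56.8 against 702 RPKM and Ms4a3, a marker of granulocyte and monocyte progenitors, at 4.72, 195 and 86 against 957 RPKM. LT replicate 1 was nearly free of these transcripts, whereas LT replicate 2 and ST lay between it and the progenitors. Without LT replicate 1, 10 of the list fell (limma, adjusted p below 0.05), and without LT replicate 2 and ST 1 and 4 fell. Some members also rose without ST, and with equal totals 2 rose and 0 fell. Genes of later, secondary granules did not follow the early ones. Ngp was at 54.2, 117 and 55.9 against 20.9 RPKM and Ltf, lactoferrin, at 7.698, 12.6 and 4.81 against 1.68 RPKM, so each stem sample exceeded the progenitors, with adjusted p-values of 0.0547 and 0.0546 from limma. Camp was at 32.1, 86.2 and 57.8 against 37.7 RPKM and S100a8 at 93.8, 588 and 227 against 487 RPKM, with the progenitor value inside the range of the stem samples. Lyz1, a lysozyme with a near-identical neighbour, Lyz2, was at 23.3, 16.5 and 19.6 against 13.4 RPKM.

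Genes of monocytes and dendritic cells changed in both directions. Of 16 tested, 2 rose (H2-Aa and H2-Ab1, subunits of MHC class II) and 6 fell (37.5%), with a median of -0.49. That median was -0.85, -0.96 and -1.19 without LT replicate 1, LT replicate 2 and ST, -3.49 over the members with a mean of at least 1 RPKM and -0.25 with equal totals. Csf1r, the receptor of the monocyte growth factor, was at 0.0748, 0.624 and 0.651 against 16.9 RPKM and fell by 3.65 (standard error 0.30, adjusted p = 0.00628 from limma). Irf8, the factor that directs monocyte and dendritic fate, was at 1.15, 1.19 and 1.82 against 28.7 RPKM and fell by 3.65 (standard error 0.25, adjusted p = 0.00514 from limma). Ccr2, a chemokine receptor of monocytes, was at 0.592, 1.02 and 0.837 against 19.3 RPKM and fell by 3.49. These separated the groups without overlap and passed in all 3 reduced fits, as did Ly86. Ly6c2, a surface protein of monocytes, was at 3.797, 172 and 114 against 1039 RPKM and did not pass, with LT replicate 1 again lowest. In the other direction, H2-Aa was at 49.98, 30.98 and 83.5 against 10.3 RPKM and rose by 2.19, a call that needed both LT replicates, since the adjusted p was 0.0932 and 0.0531 without them. Cd74, the invariant chain of class II, and the factor Klf4 had differences of 1.61 and 0.58, and neither passed. The whole list gave 0, 0 and 3 rises and 6, 4 and 7 falls in the reduced fits. Among 12 genes of basophils and mast cells, 4 fell (Ms4a2, Hdc, Prss34 and Il1rl1), none rose and the median was -1.16. Ms4a2, the beta chain of the IgE receptor, was at 0.143, 0.544 and 0.584 against 5.61 RPKM and Hdc, which makes histamine, at 0.406, 5.61 and 2.62 against 35.5 RPKM. The mast cell proteases Cma1 and Tpsb2 were at 0, 0 and 16.9 against 4.38 RPKM and 0, 0.101 and 9.12 against 3.71 RPKM, so they were highest in ST cells and at or near 0 in LT cells. Mcpt8, a protease of basophils, was at 0.115, 5.37 and 7.74 against 47.7 RPKM and did not pass, with LT replicate 1 the lowest, and Mitf, a factor of mast cells, differed by 0.39. Without LT replicate 1, LT replicate 2 and ST, 4, 1 and 9 genes of this list fell.

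Lymphoid genes and markers of mature or non-blood cells were mostly low in all samples. Of 16 lymphoid genes tested, 5 rose and none fell, with a median of 0.60. The medians were 0.00154 and 0.17 in the LT replicates and 1.34 in ST cells, and without ST the median was 0.25 and 1 member fell. Those that rose were Lck, a T cell kinase, and Gimap1, Gimap3, Gimap5 and Gimap6, GTPases of lymphocyte survival. Gimap5 was at 11.5, 9.496 and 12.2 against 0.0866 RPKM and rose by 3.47 (standard error 0.24, adjusted p = 0.00514 from limma). Genes of early B and T commitment were instead higher in ST than in LT cells, with Dntt at 0.0933, 0.504 and 13.9 against 9.82 RPKM and Vpreb1 at 0.635, 0.433 and 6.48 against 0.664 RPKM, and they did not pass. Tcf7, Satb1 and Notch1, regulators of T cell development, had differences of -0.32, -0.08 and -0.03. The reduced fits gave 3, 4 and 5 rises in this list. The 21 markers of mature lineages in the files summed to 89.4, 83.1 and 130.3 RPKM in the stem samples and 127 in progenitors, most of it from Ptprc and Cd79b. Of 11 tested, 2 fell, among them Emr1, the F4/80 antigen of macrophages at 0.0149, 0.22 and 0.232 against 1.73 RPKM. The B cell gene Cd79a was at 0.0728, 0.331 and 6.43 against 0.5499 RPKM, highest in ST cells. Among the other markers, Cd8b1 differed by 0.10 and the macrophage genes Cd68 and Itgam by -1.58 and -0.70, and these did not pass. The median of the mature markers was -0.05, and 0.27 after scaling to equal totals, and 1, 0 and 4 of them fell in the reduced fits. Of 13 endothelial and stromal markers, 6 were high enough to test and 2 rose, Emcn at 14.3, 8.73 and 17.8 against 0.231 RPKM and Sparc at 2.02, 2.01 and 1.07 against 0.171 RPKM. Emcn, endomucin, is also carried by stem cells, while the endothelial genes Cdh5 and Kdr and the stromal genes Cxcl12, Col1a1 and Pdgfra were below the level tested. Col1a2 and Pdgfrb of stromal cells differed by 1.01 and 0.17, and Lepr and Pecam1 by -0.77 and -0.12, and none passed. In the reduced fits 1, 1 and 3 members rose. The list had a median of 0.59 and summed to 40.2, 34.7 and 47.2 RPKM against 27.6, and the part of such cells in the results was not tested.

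Most genes of cell division lay below the progenitors in every stem sample, and few passed the test. Of 24 mitosis genes 20 were lower in every stem sample, against 36.9% of all genes tested, but 1 fell (4.17%, against 7% of all genes) and none rose. Their median was -1.17, and the median against progenitors was -0.77 and -0.48 in the LT replicates and -2.30 in ST cells. Mki67, which marks cycling cells, was at 18.7, 24.6 and 5.04 against 25.8 RPKM, so that LT replicate 2 nearly matched the progenitors. Birc5, survivin of the chromosome passenger complex, was at 54.9, 70.5 and 14.3 against 107 RPKM. Ccnf, an F-box cyclin, was at 7.67, 8.51 and 3.08 against 28.4 RPKM and was the gene that fell, by 2.08 (standard error 0.49, adjusted p = 0.041996 from limma). The kinases Plk1, Aurka and Bub1b differed by -1.75, -1.73 and -1.69 without passing. Of 24 replication genes 23 were lower in every stem sample and 4 fell (16.7%), with a median of -1.14. The medians were -0.96 and -0.83 in the LT replicates and -1.75 in ST cells. Rrm2, which supplies deoxynucleotides, was at 39.5, 51.4 and 25.7 against 229.6 RPKM and fell by 2.58 (standard error 0.38, adjusted p = 0.0151 from limma). Cdc6, a loader of the replication helicase, was at 13.1, 10.9 and 8.73 against 52.8 RPKM, and the helicase subunits Mcm5 and Mcm7 fell by 1.90 and 1.65, while Mcm10, at -1.79, did not pass. With a stem sample left out as before, 0, 0 and 9 mitosis genes and 2, 1 and 15 replication genes fell, so leaving out ST gave the larger counts. Fitted with a separate mean for LT and ST cells in all 8 samples of the series, 21 and 19 fell. Among 16 cyclins and inhibitors of their kinases, Cdkn1c and Cdkn1b rose and Ccne1 fell, with a median of 0.39. Cdkn1c, the inhibitor p57 that holds stem cells out of cycle, was at 3.86, 2.08 and 3.08 RPKM in the stem samples and is listed at 0 in progenitors. Ccne1, cyclin E1, was at 2.099, 1.71 and 0.823 against 8.01 RPKM and fell by 1.86, while its relative Ccne2, at -1.72, did not pass. Ccnd2 and Rbl2 differed by 1.0003 and 0.94, and the kinases Cdk4 and Cdk6 by -0.81 and -0.48, again without passing. In the reduced fits 1, 1 and 4 of these genes rose and 1, 0 and 2 fell.

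Imprinted genes, which are read from 1 parental allele and include several linked to stem cell quiescence, were on the higher side in all members tested. Of 14 tested, 8 rose (57.1%, against 8.03% of all genes tested), with a median of 1.22. In all 14 every stem sample lay above the progenitors, against 41.9% of all genes tested. Sgce, a sarcoglycan, was at 16.1, 11.3 and 13.9 against 0.695 RPKM and rose by 3.11 (standard error 0.26, adjusted p = 0.00628 from limma). Meg3, a long non-coding RNA, was at 2.198, 5.601 and 2.98 against 0.0294 RPKM and rose by 2.09, and Phlda2 was at 7.73, 4.695 and 7.43 against 1.52 RPKM. Impact, Slc22a18 and Zrsr1 rose by 1.10 to 1.43. Gnas, at 56.5, 52.7 and 43.4 against 42.4 RPKM, differed least. H19, Igf2 and Dlk1 were below the level tested. Without LT replicate 1, LT replicate 2 and ST, 4, 6 and 8 members rose, with Sgce, Ndn, Meg3 and Cdkn1c in all 3.

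Receptors of myeloid growth factors showed no common direction. Of 18 tested, 1 rose, and Csf1r, Ifngr1 and Il1rl1 fell, with a median of -0.17. Ifngr1, a chain of the interferon gamma receptor, was at 37.99, 63.6 and 63.98 against 188 RPKM and fell by 1.79 (standard error 0.34, adjusted p = 0.0266 from limma). Csf3r, the receptor of the neutrophil growth factor, was at 13.3, 19.03 and 38.95 against 43.6 RPKM and Csf2rb at 10.1, 12.5 and 17.8 against 27.2 RPKM, and neither passed. Il1r1 and Epor differed by 0.61 and -1.01 and did not pass. The median of the receptors became 0.15 after scaling to equal totals. Without LT replicate 1, LT replicate 2 and ST, 1, 1 and 1 receptor rose and 2, 1 and 6 fell. Downstream of such receptors, 6 of 19 genes of the JAK-STAT response rose (31.6%, against 8.03% of all genes tested). None fell, and the median was 0.87. Cish, a feedback inhibitor induced by STAT5, was at 28.9, 19.8 and 23.3 against 1.84 RPKM and rose by 3.12 (standard error 0.27, adjusted p = 0.00628 from limma). Socs2 was at 12.1, 9.01 and 10.8 against 0.378 RPKM and Pim2, a survival kinase, at 24.3, 23.2 and 20.3 against 2.56 RPKM, and these rose by 3.07 and 2.73. Socs3 rose by 1.96, Osm and Bcl6 differed by -0.87 and -0.26 without passing, and Socs5 and Mcl1 rose. Cish, Socs2 and Pim2 passed in each reduced fit, in which 3, 5 and 10 members rose, with 1 falling without ST. Stat5a and Stat5b, the factors themselves, were at 11.6, 8.46 and 9.96 against 9.25 RPKM and 4.25, 4.17 and 4.61 against 3.92 RPKM, and their differences of 0.09 and 0.12 did not pass. Myc was at 83.98, 55.1 and 103 against 129.9 RPKM, and its difference of -0.73 did not pass (adjusted p = 0.196 from limma).

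The study picked the peptide transporter Slc15a2 by screening these data for genes raised in LT CML cells but not in CML KLS- or normal LT cells. Its rise here was part of that choice and is not independent support. The study also measured its transcript by quantitative RT-PCR. Slc15a2 was the only gene of its group that rose. It was at 8.75, 9.94 and 10.3 against 2.28 RPKM, a difference of 1.70 (standard error 0.22, adjusted p = 0.0119 from limma), which passed in all 3 reduced fits. Slc15a4, a peptide and histidine transporter of lysosomes, was at 2.02, 2.01 and 2.28 against 4.38 RPKM and leaned the other way, with a difference of -0.79 and an adjusted p of 0.0531 from limma. Slc15a1 and Slc15a3 did not exceed 0.191 RPKM in any CML sample and were not tested. Of 19 peptide transporters and peptidases, 4 fell, namely Lta4h, Xpnpep1, Cndp2 and Dpp9, and the median was -0.78. Lta4h, an aminopeptidase that also makes leukotriene B4, was at 53.4, 89.9 and 67.6 against 239 RPKM and fell by 1.78, and Cndp2, a cytosolic dipeptidase, was at 10.4, 10.5 and 7.38 against 21.1 RPKM. The peptidases Anpep, Npepps and Dpp3 differed by 0.73, 0.14 and -0.93 and did not pass. In the reduced fits 0, 1 and 8 members fell. After quantile normalization 0 fell, with a median of -0.45, and with equal totals 1 fell, with a median of -0.36. Of 21 amino acid transporters, Slc7a8 rose and Slc38a5 fell, and the others did not pass. The median was -0.12, or 0.14 after scaling to equal totals. Slc7a8, a carrier of large neutral amino acids, was at 12.3, 10.1 and 17.5 against 2.83 RPKM and rose by 1.87 (adjusted p = 0.0219 from limma), but did not pass without either LT replicate (adjusted p = 0.0619 and 0.0522). Slc7a7, Slc38a2 and Slc6a9 differed by 0.48, 0.35 and 0.34, and Slc7a5, Slc43a1 and Slc38a1 by -0.98, -0.85 and -0.64. Genes around TGF-beta, p38 and FOXO signalling rose in 4 of 22 cases (18.2%), with none falling and a median of 0.68. Skil, a repressor of SMAD complexes, was at 12.97, 26.1 and 9.19 against 1.51 RPKM and rose by 2.64, and Foxo1, Smad1 and Txnip rose by 1.33, 1.07 and 1.55. Smad3, Mapk14 (p38 alpha) and Foxo3 were at 5.15, 4.68 and 6.91 against 2.64 RPKM, 23.1, 22.2 and 25.96 against 15.5 RPKM and 0.451, 0.323 and 0.557 against 0.136 RPKM. Every stem sample was above the progenitors in these 3 genes, with adjusted p-values of 0.07803, 0.106 and 0.229 from limma. Tgfbr3, a co-receptor of TGF-beta, differed by 1.54, and the p38 pathway kinases Mapkapk2, Mapk13, Map2k3 and Map2k6 by -0.76, -0.50, -0.30 and -0.12, and none of these passed. The counts without LT replicate 1, LT replicate 2 and ST were 0, 2 and 6.

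Several genes of MHC class I and the interferon response were higher in stem cells. Of 21 genes of MHC class I and peptide loading, 5 rose (23.8%, against 8.03% of all genes tested), none fell and the median was 0.58. The 5 were H2-T3, H2-T24, H2-T10, H2-T23 and H2-Q10, all non-classical class I genes whose copies are alike in sequence and may share reads. H2-T3 was at 8.96, 6.35 and 8.301 against 0.747 RPKM and rose by 2.33, and H2-T24 was at 54.4, 38.6 and 38.7 against 12.96 RPKM and rose by 1.67. The classical genes H2-K1 and H2-D1 were at 251, 212 and 243 against 155 RPKM and 430.2, 359 and 509.8 against 399.7 RPKM, the peptide pump Tap1 at 13.7, 13.01 and 12 against 12.1 RPKM, and none of these passed. The lowest differences were those of Tap2, -0.49, and of the immunoproteasome subunits Psmb10, Psmb8 and Psmb9, -0.43, -0.39 and -0.29, which did not pass. With each stem sample left out in turn, 2, 1 and 6 members rose. Of 30 interferon genes 7 rose (23.3%, against 8.03% of all genes tested) and none fell, with a median of 0.81. Iigp1, a GTPase that attacks vacuoles of microbes, was at 13.7, 7.24 and 17.9 against 0.252 RPKM and rose by 3.40 (standard error 0.46, adjusted p = 0.0127 from limma). Ifitm1 and Ifitm3, membrane proteins that block virus entry, were at 812, 517 and 1080 against 228 RPKM and 580.3, 408 and 507 against 212 RPKM, and Ifi44, Oasl2, Gbp2 and Rsad2 also rose. Bst2 was at 8.89, 5.02 and 9.04 against 16.8 RPKM and did not pass, nor did Gbp3 and Ifi35 at -0.54 and -0.19. LT replicate 2 was the lowest stem sample in Iigp1, Ifitm1 and Bst2. The numbers that rose in the reduced fits were 2, 4 and 11, and 1 member fell without ST.

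Immediate early genes, which respond within minutes to signals and to handling of cells, were higher in stem cells in most cases. Of 19 tested, 11 rose (57.9%, against 8.03% of all genes tested), none fell and the median was 1.36. Egr1, a zinc finger factor, was at 90.4, 84.8 and 54.4 against 4.68 RPKM and rose by 3.74 (standard error 0.33, adjusted p = 0.00628 from limma). Junb was at 10.2, 8.51 and 9.71 against 1.398 RPKM, Ier2 at 59.2, 41.8 and 52.8 against 12.9 RPKM and Nr4a2 at 9.01, 12.3 and 4.24 against 0.371 RPKM. The stem samples were close together for Junb and Ier2. Fos, at 714, 408 and 918 against 232 RPKM, had the highest level of the list and did not pass (adjusted p = 0.0733 from limma), with LT replicate 2 well below the other stem samples. Atf3 and Klf2, at 1.42, 6.48 and 1.47 against 1.59 RPKM and 5.72, 10.2 and 5.55 against 5.56 RPKM, lay near the progenitors in at least 1 stem sample. The reduced fits gave 6, 5 and 13 rises, and the time from sacrifice to lysis of each sample was not given in the sources used here. Of 14 ABC and drug transporters, 4 rose and 2 fell, with a median of 0.47. Abcg3 was at 9.23, 4.65 and 8.74 against 0.0555 RPKM and rose by 2.97, and Abcg1 and Abca1, which export cholesterol, rose by 2.02 and 1.20. Abcg2, the pump behind the side population of stem cells, was at 43.8, 33.6 and 30.1 against 18.3 RPKM and did not pass (adjusted p = 0.0666 from limma). Slc22a3, an organic cation transporter, rose by 1.56. Abcc4 and Abca7 differed by -0.64 and -0.14 and did not pass. Abcb4 and Abca3 fell by 1.32 and 1.03, calls that were lost without either LT replicate. In the reduced fits 2, 2 and 5 transporters rose and 0, 0 and 2 fell.

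Glycolysis genes moved in both directions. Of 26 tested, 6 rose (23.1%, against 8.03% of all genes tested) and 10 fell (38.5%, against 7%), with a median of -0.81. Slc2a3, a high-affinity glucose carrier, was at 42.8, 45.4 and 37.2 against 3.97 RPKM and rose by 3.10 (standard error 0.22, adjusted p = 0.00533 from limma). Aldoc, Eno2, Ldhb and Ldhd rose by 2.96, 1.19, 1.23 and 2.19, and Slc2a1 by 1.13. Among those that fell were widely used enzymes, with Aldoa at 287, 272 and 399 against 722 RPKM, Eno1 at 12.8, 12.7 and 11.9 against 46.6 RPKM and Gapdh at 155, 157 and 140.4 against 339 RPKM. Eno1 fell by 1.83 (standard error 0.20, adjusted p = 0.00911 from limma), and Pgam1, Gpi1, Pkm2, Pgk1, Tpi1, Pfkp and Eno3 also fell. Ldha, at 560.5, 508 and 318 against 893 RPKM, did not pass, nor did Hk3, a hexokinase of myeloid cells, at 1.08, 3.902 and 12.01 against 49.5 RPKM. With a stem sample left out as before, 3, 2 and 6 genes rose and 2, 2 and 12 fell, and after quantile normalization 3 rose and 1 fell, and with equal totals 6 and 4. Nuclear genes of oxidative phosphorylation lay lower almost throughout. Of 73 subunits 32 fell (43.8%, against 7% of all genes tested) and none rose, with a median of -0.88. In 69 every stem sample lay below the progenitors, against 36.9% of all genes tested. Uqcrc1, a core subunit of complex III, was at 75.8, 66.4 and 84.02 against 242 RPKM and fell by 1.67 (standard error 0.23, adjusted p = 0.0128 from limma). Uqcrq and Cox5a fell by 1.56 and 1.34, whereas Cox7a2l, at 147, 156 and 159 against 127 RPKM, leaned higher and did not pass, nor did Atp5g1 at -1.23. The number of subunits that fell was 2, 2 and 36 in the reduced fits, 1 after quantile normalization, 26 after upper-quartile scaling and 6 with equal totals, where the median was -0.46. Cytosolic ribosomal proteins, which make up a large part of all RPKM, had a median of -0.31 over 82 genes, and Rpl30 alone fell, by 0.94. With equal totals none of them passed in either direction and their median was 0.12, so that their direction rested on the scaling. Their differences ran from -0.94 to 0.65, with Rps4y2, Rps27, Rpl21 and Rpl22l1 at the upper end (0.65, 0.21, 0.19 and 0.11) and Rpl27, Rps16 and Rpl41 next to Rpl30 at the lower end (-0.84, -0.78 and -0.68), and genes with processed pseudogenes may share reads.

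**Figure D4:**
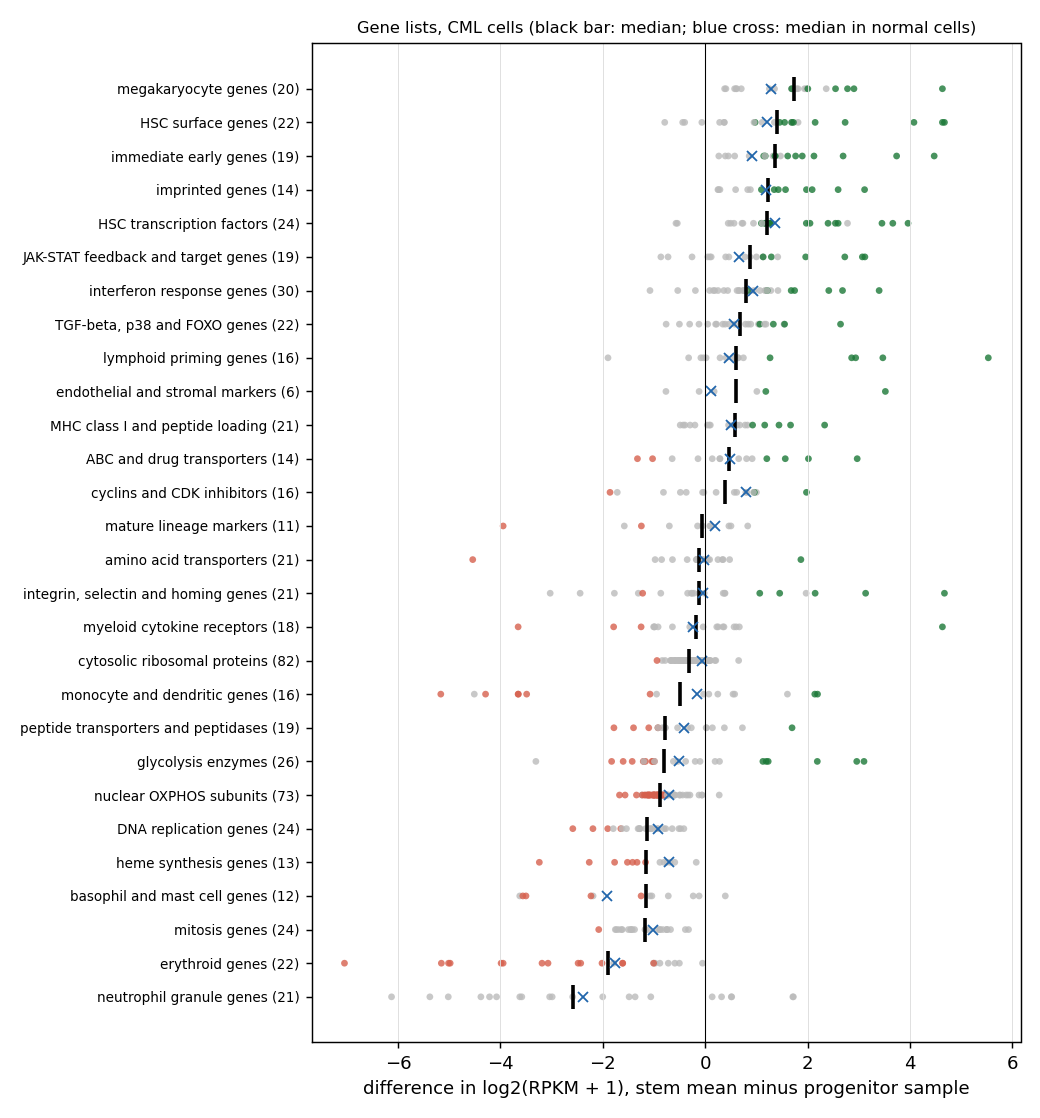
Difference in log2(RPKM + 1) between the mean of the 3 CML stem samples and the CML KLS- sample for each tested member of 28 gene lists, with the number of tested members in parentheses, members that rose in green, members that fell in red and the others in grey. The black bar is the median of the list and the blue cross its median in the normal samples. Medians run from -2.59 for granule genes, none of which passed, to 1.74 for megakaryocyte genes.

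The same subtraction in the normal samples, which share no sample with the CML comparison, gave a second reading of each difference. RPKM summed to 359006 to 372849 in the normal stem samples and to 444650 in normal KLS- cells. Totals were thus higher on the progenitor side in both subtractions, and the second reading is not independent of the scaling. Of the 942 genes higher in CML stem cells, 923 (97.98%) were higher in each of the 3 normal stem samples than in normal KLS- cells, against 41.5% of all genes tested. Of the 821 lower genes, 790 (96.2%) were lower in each normal stem sample, against 33.6% of all genes. The median difference of the higher genes was 1.36 in CML and 1.26 in normal cells, and that of the lower genes -1.19 and -0.99. Meis1, for instance, was at 166, 139 and 152 against 20.01 RPKM in normal cells and Mecom at 22.7, 25.5 and 17.3 against 0.502 RPKM. Car1 was at 30.6, 26.7 and 21.6 against 804 RPKM and Irf8 at 0.904, 2.06 and 2.07 against 37.7 RPKM.

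Whether a difference was larger or smaller in CML than in normal cells was tested as an interaction over all 8 samples and 12561 genes (limma, 4 residual degrees of freedom), in which both progenitor groups are single samples. At an adjusted p below 0.05 0 genes had a more positive and 1 gene a more negative difference in CML, 0.00796% of those tested, and 324 (2.58%) had an unadjusted p below 0.05. The gene was Mst1r, the receptor of macrophage stimulating protein, on chromosome 9 (107809220 to 107822714 of mm9, plus strand). It was at 0, 0.0467 and 0.126 against 4.72 RPKM in CML and listed at 0 in all 4 normal samples, an interaction of -2.44 (standard error 0.18, adjusted p = 0.0196 from limma). The transcript was thus present in the CML KLS- sample and nearly absent from the rest. With a minimum mean of 1 RPKM the gene was filtered out before the test. The call was lost with pseudocounts of 0.1 and 0.5, no intensity trend and equal totals, and when any stem sample of either kind other than CML LT replicate 2 was left out. Below the threshold, and chosen after their values were seen, Hebp1, a heme-binding protein, was at 12.2, 13.2 and 14.8 against 90.2 RPKM in CML and 6.09, 7.14 and 5.37 against 6.47 RPKM in normal cells (adjusted p = 0.0689 for the interaction from limma). Bcat1, an aminotransferase of branched-chain amino acids, was at 0.4799, 0.582 and 0.718 against 7.15 RPKM and 0.0639, 0.0214 and 0.2101 against 0.277 RPKM, and Ifi202b, an interferon-inducible gene, at 0.135, 0.521 and 0 against 10.4 RPKM and 0, 0 and 0.0297 against 0 RPKM (adjusted p = 0.0679 and 0.0614 from limma). In each of these the CML KLS- sample was the highest of the 8. Slc15a2 was at 2.64, 3.07 and 3.13 against 1.31 RPKM in normal cells, and its larger difference in CML had an unadjusted p of 0.0135 and an adjusted p of 0.9999 from limma. The screen by which the study picked this gene also used its level in normal LT cells. H2-T24, raised in CML stem cells, was at 7.14, 6.91 and 7.07 against 7.398 RPKM in normal cells, with an interaction of 1.73 (adjusted p = 0.446 from limma). Cish and Pim2 were at 10.8, 12.8 and 8.25 against 0.6397 RPKM and 8.13, 7.2 and 10.8 against 2.37 RPKM, so that both also stood higher in normal stem cells than in normal progenitors (adjusted p = 0.9999 and 0.9999 for the interaction from limma).

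**Figure D5:**
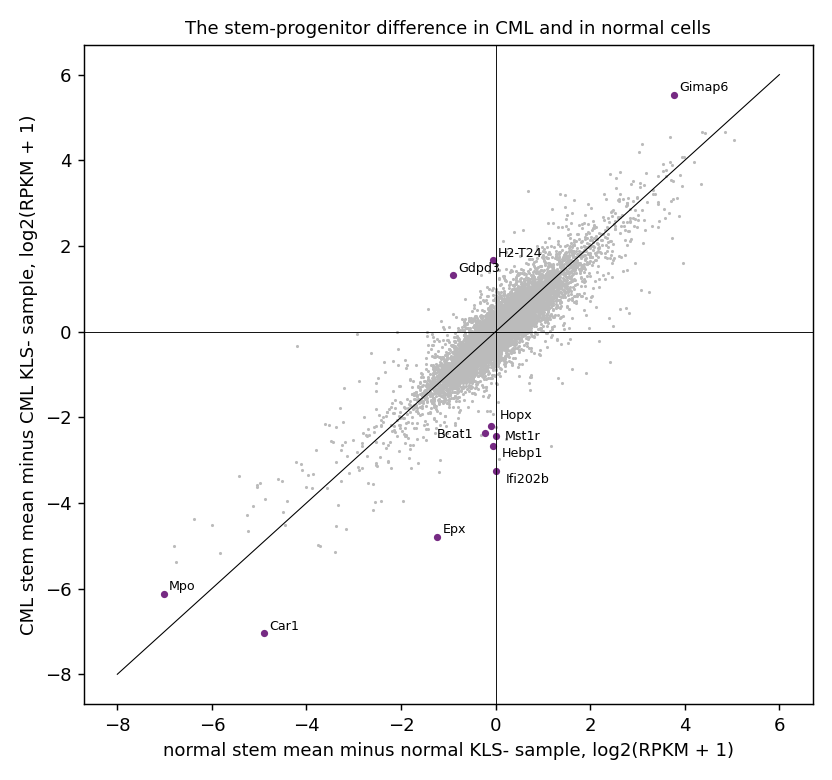
Difference in log2(RPKM + 1) between stem samples and the KLS- sample in CML cells (vertical axis) against the same difference in normal cells (horizontal axis), 1 point per gene tested for the interaction (12561), with named genes in purple and the line of equal differences in black. Most genes lie along the line, Mst1r, Ifi202b, Hebp1, Bcat1 and Hopx lie below it at a normal difference near 0, and Gdpd3 and H2-T24 lie above it.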

How the data were processed

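Total RNA of sorted bone marrow cells was amplified from oligo-dT with the SMARTer Ultra Low Input kit and sequenced as paired-end reads on a HiSeq2000, and the authors computed RPKM per gene with the SeqNova CS service of DNAnexus on mm9, the build in the submitters' processing notes. The annotation and the counting rule are not given in the sources used here. The deposited RPKM values (1 per gene and sample, 20207 genes) carry no read counts. The depth was estimated from the steps between values up to 0.3 RPKM and exon lengths of GENCODE M1, as the depth most often met (1360 of 2766 low genes), and 93.2% of gene names matched 1 locus there, which gave the mm9 coordinates.

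Genes whose summed RPKM exceeded 1 in the 4 CML samples were compared on log2(RPKM + 1), with a pseudocount of 1, in limma 3.58.1 (R 4.3.3) with an intensity trend and Benjamini-Hochberg adjustment, as stem mean minus progenitor. The progenitor group has 1 sample, and a gene passed at an adjusted p below 0.05. The interaction with normal cells used all 8 samples and the same minimum over them. Leaving out a stem sample leaves 1 residual degree of freedom. The fits were tested before use on simulated data, in which the progenitor sample was given the spread of the stem samples. That test therefore does not show how the real progenitor sample varies. Tables and figures were made in Python 3.11.15. Alternatives were pseudocounts of 0.1 and 0.5, no minimum or a mean of at least 1 RPKM, quantile and upper-quartile scaling, no intensity trend, fits of all 8 samples and leaving out each stem sample, plus scaling to equal summed RPKM, which was chosen after seeing the data.

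The samples compared and the 28 gene lists were chosen with earlier results of these data known. Named genes were the sorting markers, the 12 largest differences that passed in each direction, up to 4 members at each end of every list, interactions that passed, Slc15a1 to Slc15a4, Smad3, Mapk14, Foxo3, Gdpd3, Xist and Ddx3y. All others were chosen after their values were seen, and a few genes that this rule names are not reported here. Older gene names in the files were matched through RefSeq synonyms. Promoters are those of RefSeq on GRCm38.p6, matched by symbol.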

Additional observations from a re-analysis of the deposited data

Results flagged for a closer look

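Several genes drew attention because the difference between stem cells and KLS- cells was not the same in CML and normal samples. For Mst1r the interaction of -2.44 passed the test over all genes (limma, adjusted p = 0.0196). Its only value above 0.2 RPKM among the 8 samples was that of the CML KLS- sample, at 4.72, so a single sample carries the result. No gene passed with pseudocounts of 0.1 and 0.5, without the intensity trend, with equal totals, or without any stem sample of either kind except CML LT replicate 2.

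The others stood on opposite sides of the progenitors in every sample of the 2 groups, and none of these differences passed the interaction test. Gdpd3, a lysophospholipase, was at 95.02, 88.5 and 132 against 41.05 RPKM in CML and 0.329, 0.314 and 0.249 against 1.43 RPKM in normal cells, so that every CML stem sample exceeded its progenitors and every normal stem sample lay below them (interaction 2.22, standard error 0.36, unadjusted p = 0.000316, adjusted p = 0.272 from limma). H2-T24 was higher than the progenitors in each CML stem sample and slightly lower in each normal one, by an interaction of 1.73 (adjusted p = 0.446 from limma). The globins went the other way. Hbb-b1 was at 6.25, 56.3 and 3.23 against 2.21 RPKM and Hbb-b2 at 6.57, 33.2 and 6.01 against 1.29 RPKM in normal cells, with normal LT replicate 2 the highest, and interactions of -2.89 and -3.13 (adjusted p = 0.9999 and 0.9999 from limma). Map2k3, a kinase above p38, was at 17.4, 24.6 and 18.8 against 25.01 RPKM in CML and 29.7, 24.2 and 24.2 against 20.9 RPKM in normal cells, an interaction of -0.60 (adjusted p = 0.9999 from limma).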

How the results depend on the processing

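The 942 higher and 821 lower genes became 444 and 337 after quantile normalization, 1968 and 316 with equal summed RPKM, 1606 and 1499 in the fit of all 8 samples with a mean for each population, and 0 and 0 with no minimum on RPKM, where 17714 genes entered the test (limma). The pseudocounts, the mean of at least 1 RPKM, the fit without trend and the fit with 4 group means kept both counts within 1.5 times, as did upper-quartile scaling. Without 1 stem sample the counts ranged over 232 to 1348 higher and 112 to 1231 lower. None of the called genes changed direction under any of these settings, which is a weak check for genes picked by their differences in the same samples. The 626 genes at least 1 higher became 1537 with a pseudocount of 0.1 and 1128 with equal summed RPKM, where the 516 at least 1 lower became 217. They ranged over 668 to 864 and 608 to 657 without 1 stem sample. For the interaction, 5 genes were larger and 5 smaller with no minimum on RPKM. Mst1r, the only gene past the threshold, was lost, leaving 0, with pseudocounts of 0.1 and 0.5, no trend and equal summed RPKM. With a mean of at least 1 RPKM it was filtered out before the test, and 0 genes passed. Without 1 stem sample of either kind, 0 genes were larger and 0 to 1 smaller. The cause of these changes was not tested.

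Of 288 named genes, 159 lost a call with no minimum on RPKM, 63 after quantile normalization, 22 with equal summed RPKM and 17 after upper-quartile scaling. With a pseudocount of 0.1, and in the fit with 4 group means, 9 lost a call. Without LT replicate 1, 78 of the 286 still tested lost a call, and without LT replicate 2, 85 of 285. In lists with 4 or more calls in a direction under either setting, some counts changed by over 1.5 times. They are given as reported and then as changed. After quantile normalization the number that rose did so for imprinted genes (8 and 4), TGF-beta, p38 and FOXO genes (4 and 2), integrin, selectin and homing genes (5 and 3), ABC and drug transporters (4 and 2), immediate early genes (11 and 7) and glycolysis enzymes (6 and 3). With equal totals it did so for cyclins and CDK inhibitors (2 and 4), JAK-STAT feedback and target genes (6 and 10), TGF-beta, p38 and FOXO genes (4 and 10), MHC class I and peptide loading (5 and 10) and interferon response genes (7 and 14). The number that fell changed so after quantile normalization for nuclear OXPHOS subunits (32 and 1), glycolysis enzymes (10 and 1), peptide transporters and peptidases (4 and 0), basophil and mast cell genes (4 and 2) and DNA replication genes (4 and 1). With equal totals it changed so for nuclear OXPHOS subunits (32 and 6), glycolysis enzymes (10 and 4), peptide transporters and peptidases (4 and 1) and basophil and mast cell genes (4 and 2).

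Named genes that had not passed changed sign in some settings. After quantile normalization these were Cd79b (0.16), Cd8b1 (-0.21), Icam4 (0.01799), Ifi35 (0.0462), Il2ra (-0.01804), Pecam1 (0.0178), Psmb10 (0.0799), Psmb8 (0.24), Psmb9 (0.20) and Stat5b (-0.0422). After upper-quartile scaling these were Cd79b (0.0141), Icam4 (0.10), Il1rap (0.0733), Map2k6 (0.0102), Notch1 (0.0911), Pecam1 (0.0386) and Satb1 (0.0175). With equal summed RPKM these were Abca7 (0.11), Cd79b (0.27), Icam4 (0.34), Ifi35 (0.22), Il1rap (0.29), Map2k3 (0.11), Map2k6 (0.21), Notch1 (0.28), Pecam1 (0.28), Psmb8 (0.0305), Psmb9 (0.13) and Satb1 (0.16). With a mean for each population in 8 samples these were Notch1 (0.0955) and Satb1 (0.12). Without 1 stem sample the differences ranged over -0.0855 to 0.73 for Atf3, -0.30 to 0.00171 for Cd79b, -0.16 to 1.09 for Flt3, -0.0243 to 0.23 for H2-D1, -0.39 to 0.44 for Icam4, -0.17 to 0.0397 for Il1rap, -0.29 to 0.13 for Notch1, -0.00647 to 0.27 for Pdgfrb, -0.50 to 0.17 for Satb1, -0.00991 to 0.20 for Stat5a and -0.12 to 1.07 for Vpreb1.

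No paired analysis was possible because the progenitor side has 1 sample and its number marks no shared animal with the stem samples. The progenitor sample could not be left out, and no value shows how much it would vary between mice. With RPKM alone, the estimated depth covers counting error only, and values of a few reads, such as those of Mst1r in stem cells, limit any fold to the pseudocount scale. LT replicate 2 held transcripts of both Xist and Ddx3y, and the sexes in the other samples were not tested.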

Other observations

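Hopx, a homeodomain protein of stem cells, was chosen after its values were seen. It was at 0.568, 0.398 and 0.777 against 6.299 RPKM in CML and 0.227, 0.265 and 0.193 against 0.313 RPKM in normal cells, with an interaction of -2.12 (adjusted p = 0.0689 from limma). Rnase12 was at 0, 0 and 0 against 0 RPKM and 0.572, 0.287 and 0.607 against 5.298 RPKM, and 5830443L24Rik at 0.412, 0.223 and 0.458 against 0 RPKM and 7.36, 6.66 and 6.77 against 0.1205 RPKM (adjusted p = 0.0679 and 0.0679 for the interaction from limma). Rnase12 was thus listed at 0 in every CML sample, and 5830443L24Rik was below 0.5 RPKM in every CML sample and in both KLS- samples, whereas the normal stem samples held more.

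In normal cells the granule genes that set CML LT replicate 1 apart were at 31.8, 69.9 and 95.5 against 7891 RPKM for Mpo and 25.2, 125 and 9.72 against 3582 RPKM for Ela2, in the order LT replicate 1, LT replicate 2 and ST against KLS-. The 21 granule genes together summed to 913, 4816 and 613 against 14860 RPKM in normal cells. Normal LT replicate 2 thus stood well above the other normal stem samples in this sum. Mt2 was at 2.16, 4.59 and 0.765 against 27.4 RPKM and Epx at 0.0559, 0.249 and 0 against 1.596 RPKM in these samples.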
